A study of Caenorhabditis elegans with 6 samples.

Results

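The piRNA loci of Caenorhabditis elegans were examined in poly(A)-selected RNA libraries from animals with the loss-of-function allele plp-1(ok2155) and from wild-type strain N2. A locus was taken as a piRNA locus when the deposited gene table gave it the biotype piRNA, which chose 15364 of 46769 genes. Each of the 15364 loci had 1 transcript of 21 bases, and 15363 lay on an annotated piRNA of the same span on the WBcel235 assembly.

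Animals of both genotypes were mixed-stage hermaphrodites, with embryos, larvae and adults together, kept at 20 °C on OP50 bacteria until the plates were full of animals that were not yet starved. There were 3 biological replicates of plp-1(ok2155) and 3 of wild-type N2. Libraries were made with a stranded mRNA kit from total RNA of whole animals, so fewer germ cells and less RNA per cell cannot be told apart, and neither can a shift in the mix of stages. The mutant group stands for 1 allele. The plp-1 gene itself, which encodes a single-strand nucleic acid-binding protein of the Pur-alpha family, averaged 20.4 ± 2.70 CPM (counts scaled to an equal library total) in plp-1(ok2155) and 367 ± 69.2 CPM in wild-type (SD, n = 3 each), and its log2 fold change was -4.17 with an SE of 0.28 (edgeR adjusted p = 0.00242). Total counts ran from 41925388 to 46800016 in plp-1(ok2155) libraries and from 39331848 to 53486099 in wild-type libraries.

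In C. elegans the piRNAs are called 21U-RNAs, because they are 21 bases long and begin with uracil. They are made in the germ line, where the Piwi Argonaute PRG-1 carries them and uses them to find transcripts to silence. Most are encoded by individual small transcription units in clusters on chromosome IV, each giving a short capped precursor that is trimmed at both ends and methylated at its 3′ end by HENN-1. Neither the precursor nor the mature piRNA is a polyadenylated message, so an mRNA library is not built to capture either, and the values below describe what such libraries assigned to the piRNA positions, not levels of mature piRNAs.

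Few piRNA loci received any count. A count above 0 in at least 1 library was found at 1124 loci (7.32%), and 14240 loci had none. The same share was 16.2% for the class labelled ncRNA (1258 of 7742 genes), 26.5% for miRNA genes (36 of 136), 61.2% for small nucleolar RNA genes and 91.4% for protein-coding genes. Among piRNA loci, 436, 463 and 475 had a count in plp-1(ok2155) replicates 1, 2 and 3, against 672, 443 and 401 in wild-type replicates 1, 2 and 3. Wild-type replicate 1 stood above the other 5 libraries, and the other wild-type libraries overlapped the mutant range.

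Their summed counts were 803, 769 and 759 in plp-1(ok2155), against 1188, 820 and 793 in wild-type. These sums were also taken as CPM over the counts of all named genes, without edgeR's scaling. On that scale piRNA loci took 17.2, 16.4 and 18.1 in plp-1(ok2155) (17.2 ± 0.837, SD, n = 3), against 22.2, 16.4 and 20.2 in wild-type (19.6 ± 2.97, SD, n = 3). The groups overlapped, and the log2 ratio of the group means, plp-1(ok2155) over wild-type, was -0.18. The number of counted loci, scaled to the total count in the same way, was 9.34, 9.89 and 11.3 in plp-1(ok2155), against 12.6, 8.84 and 10.2 in wild-type.

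Most counted loci were seen in a single library. Of the 1124 loci, 571 (50.8%) had a count in 1 library only and 226 (20.1%) had one in all 6. Wild-type replicate 1 alone accounted for 226 loci seen nowhere else, while each of the other 5 libraries had 44 to 85 such loci. In plp-1(ok2155) only, 256 loci were counted, against 392 in wild-type only, and 476 were counted in both groups. A count in all 3 libraries of one group and none of the other was found at 9 loci, 5 of them in plp-1(ok2155) and 4 in wild-type, or 0.801% of counted piRNA loci, beside 0.945% of all named genes with any count. In 8 of the 9 every estimated count was under 0.5. The exception was 21ur-1948 (IV:5865880-5865900, minus strand), which overlaps exons of C06E7.88 and of the sperm gene spe-27. It was listed at 0 in each plp-1(ok2155) library and had 3, 1 and 1 counts in the wild-type libraries. Those came from estimates of 2.03, 0.278 and 0.139.

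The size of these values depends on rounding. The deposited counts were estimated counts rounded up to the next whole number, as the product of FPKM (read fragments scaled by transcript length and library size), length and a constant for each library showed. A locus with any positive estimate therefore shows a count of at least 1. Of 2890 positive values over loci and libraries, 2756 (95.4%) were exactly 1, and 2638 of those came from an estimate under 0.5. The median positive estimate was 0.120 counts. Before rounding, the loci summed to 432, 373 and 357 estimated counts in plp-1(ok2155), against 633, 447 and 453 in wild-type. Over all 6 libraries the loci held 5132 counts as deposited and 2694.5 as estimates, a ratio of 1.90.

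**Figure D1:**
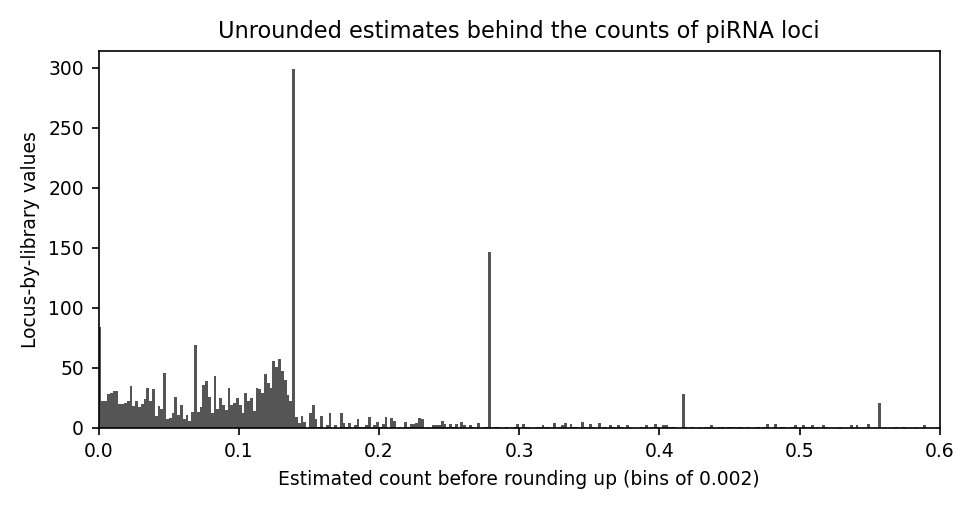
Number of values, 1 for each locus and library with a count, by the estimated count before rounding up, in bins of 0.002; estimates over 0.6 lie beyond the axis. The tallest bar, 299 values, lies at 0.138 to 0.14, and the next isolated peak, 146 values, at 0.278 to 0.28.

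The plot of unrounded estimates shows that the values were not spread evenly. The most frequent bin, from 0.138 to 0.14, held 299 values, and above 0.2 the most frequent, from 0.278 to 0.28, held 146. Smaller isolated peaks lay in the bins that start at 0.416, with 28 values, and at 0.556, with 21. How many reads stand behind an estimate was not tested, so an estimate under 1 cannot be taken as less than 1 read. Counts above 1 in any library were found at 52 of the 15364 loci, and 196 loci had exactly 1 count in each of the 6 libraries.

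The share of loci with a count differed with where a locus lay relative to other genes. The loci were placed by strand against exons and introns of genes of any other biotype. Of 587 loci that overlapped an exon on the same strand, 406 (69.2%) had a count, against 41 of 520 (7.88%) over an exon on the opposite strand. In introns, 325 of 2498 same-strand loci (13.0%) had a count, against 39 of 2705 on the opposite strand (1.44%). Of the 9041 loci that overlapped no other gene, 313 (3.46%) had one. Another 13 loci, whose strand could not be resolved, all had 0.

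Same-strand exons held 3.82% of the loci and 77.0% of the piRNA counts, or 89.2% of the estimates before rounding. Loci in same-strand introns held 10.7% of the counts, and loci that overlapped no other gene 10.1%. Counts within an exon of another gene on the same strand cannot be told apart from reads of that gene, because the table gives only what the authors' estimation assigned to each.

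**Figure D2:**
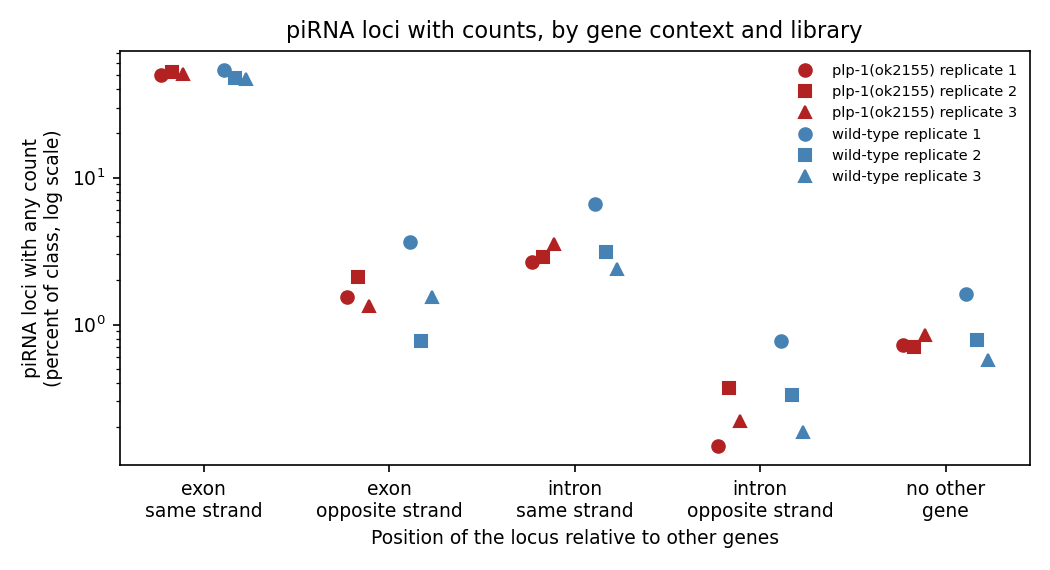
Percent of piRNA loci with any count in each library (log scale), by position relative to other genes, with plp-1(ok2155) in red on the left of each class and wild-type in blue on the right; marker shapes are replicates 1 to 3. Loci in same-strand exons lie near 50% in all 6 libraries, and wild-type replicate 1 lies highest in every class.

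The plot by gene context shows that same-strand exons led in every library. There, 291, 306 and 297 loci had a count in plp-1(ok2155), against 319, 281 and 276 in wild-type. Wild-type replicate 1 stood apart mainly outside such exons. In same-strand introns, 67, 72 and 88 loci had a count in plp-1(ok2155), against 166, 78 and 60 in wild-type. At loci that overlapped no other gene the numbers were 66, 64 and 77 in plp-1(ok2155), against 147, 71 and 52 in wild-type. That library also had the largest total count and the largest share of counts in rows that name no gene, 0.0246%, against 0.00236% to 0.00657% in the other libraries; the part of either in its extra loci was not tested.

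The level of the surrounding gene went with whether a locus was counted. For 524 of the same-strand exon loci the host gene, the gene whose exon holds the locus, was in the table. With hosts averaging under 0.1 CPM, 50 of 168 loci (29.8%) had a count, and with hosts at 0.1 to 1 CPM 97 of 114 (85.1%) had one. At 1 to 10 CPM the share was 95.4%, at 10 to 100 CPM 96.6%, and above 100 CPM 21 of 23 loci (91.3%). For loci in same-strand introns the shares over the same classes were 2.04%, 4.27%, 13.6%, 18.9% and 39.0%.

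**Figure D3:**
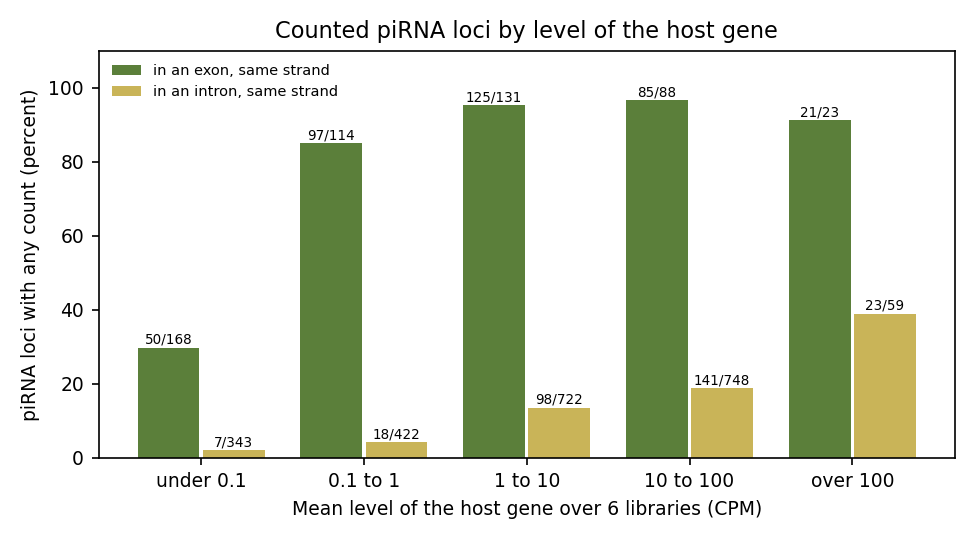
Percent of piRNA loci with any count, by the mean level of the gene that holds the locus on the same strand, for loci in exons (green) and in introns (yellow); numbers above the bars are counted loci over all loci of the class. The share in exons is 29.8% with hosts under 0.1 CPM and 85.1% or more in each higher class, and in introns it is 2.04% in the lowest class and 39.0% in the highest.

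The plot by host level shows both series against the same CPM classes. Per unit of length, FPKM of locus and host had a Spearman rho of 0.78 over the 524 loci and 0.69 over the 378 with a count. These are descriptions across loci, which share 376 hosts and the same 6 libraries. A counted locus usually carried a small part of its host's level, with a median ratio of locus FPKM to host FPKM of 0.0312, and 11 loci exceeded their host.

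The share of loci with counts above 1 was larger in untranslated regions than in coding sequence, and their hosts also differed in level. Loci were classed by any overlap, so some may reach past the exon. Of 338 loci that overlapped coding sequence and no UTR, 277 (82.0%) had a count, but only 6 (1.78%) exceeded 1 count in some library. Of 84 loci that overlapped a 3′ UTR alone, 57 (67.9%) had a count and 17 (20.2%) exceeded 1. In 5′ UTRs 21 of 31 loci had a count and 4 (12.9%) exceeded 1. Where a locus overlapped both coding sequence and UTR, 15 of 21 had a count and 3 exceeded 1. The median total of counted loci was 6 in coding sequence and 3 in 3′ UTRs, and the median host level 0.992 CPM in coding sequence and 2.18 CPM in 3′ UTRs. Among 49 loci that overlapped an exon but neither coding sequence nor a UTR, 7 had a count and 0 exceeded 1. The gene models behind the deposited values, as far as the hosts of the largest loci show, spanned the coding part.

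For loci that overlapped no other gene, nearness to the end of an upstream gene on the same strand went with counting. Within 500 bases of that end, 52 of 595 loci (8.74%) had a count. Beyond that and up to 2000 bases 4.55% did, from there to 10000 bases 3.13%, and beyond 10000 bases 91 of 3598 (2.53%). The median distance was 4183 bases for the 313 counted loci and 7261.5 for the 8728 uncounted ones.

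Chromosome IV holds the piRNA clusters, and a smaller share of its loci had a count than of the scattered loci on the other chromosomes. It carried 14715 of the loci (95.8%), of which 970 (6.59%) had a count, and 54.1% of the piRNA counts. The other chromosomes together carried 649 loci, of which 154 (23.7%) had a count, and 45.9% of the counts. Chromosome III had the highest share, 25 of 78 loci (32.1%), and chromosome X the lowest of the others, 31 of 162 (19.1%).

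The mix of positions differed between them. Same-strand exons held 3.27% of the chromosome IV loci and 16.3% of the others. Within that class, 65.7% of chromosome IV loci and 84.9% of the others had a count. Among loci that overlapped no other gene the shares were 3.23% on chromosome IV and 11.2% elsewhere.

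Along chromosome IV the share varied within and between the clusters. The megabases from 15000001 to 16000000 and from 16000001 to 17000000 held 3519 and 2951 loci, of which 4.18% and 4.20% had a count. The megabase before them, from 14000001 to 15000000, held 3476 loci, of which 7.22% had one. In the other cluster, from 5000001 to 6000000, 115 of 1638 loci (7.02%) had one. Between the clusters, from 7000001 to 13000000, each megabase held 19 to 79 loci, of which 14.3% to 26.8% had a count.

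A few loci held much of the total. The 12 with the largest summed counts took 42.7% of all piRNA counts, and all 12 lay in a same-strand exon of 1 of 10 host genes. Of these 12, 8 lay in a 3′ UTR, 2 in a 5′ UTR, 1 across the junction of 5′ UTR and coding sequence, and 1 in coding sequence.

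**Figure D4:**
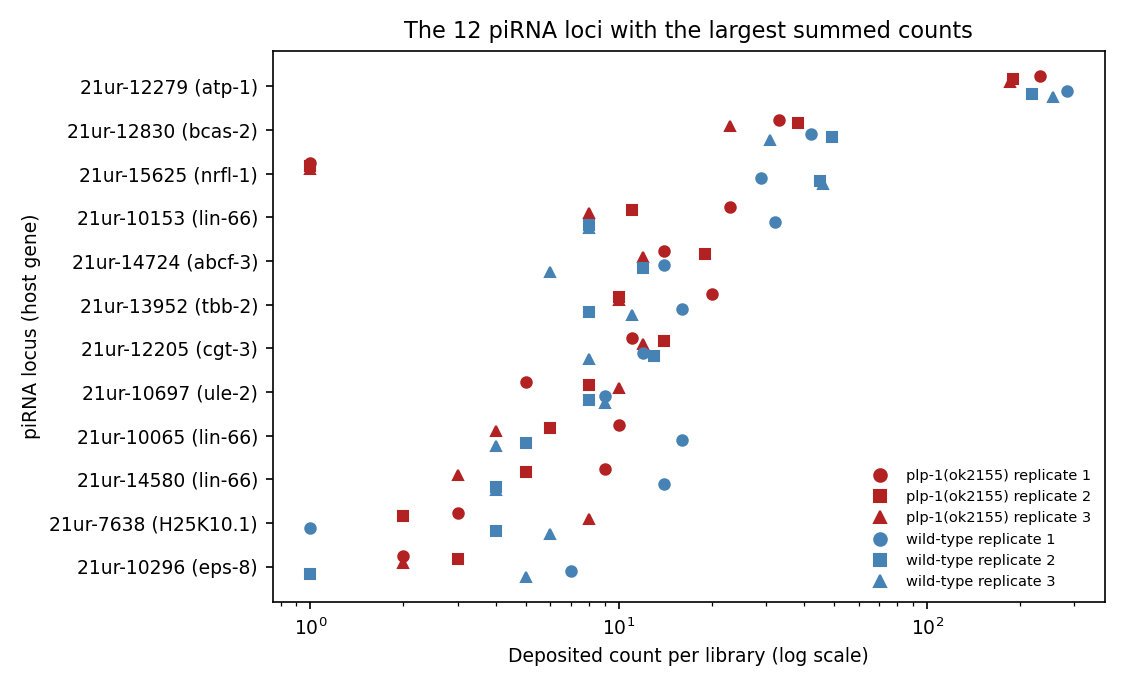
Deposited count in each library (log scale) of the 12 piRNA loci with the largest summed counts, with the host gene in brackets; plp-1(ok2155) libraries are red and drawn above the blue wild-type libraries, and marker shapes are replicates 1 to 3. At 21ur-15625 all 3 plp-1(ok2155) libraries lie at 1 and the wild-type libraries at 29 to 46, and at the other 11 loci the counts overlap.

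The largest, 21ur-12279 (I:12652385-12652405, plus strand), covers the start of the coding sequence of atp-1, the alpha subunit of mitochondrial ATP synthase, with 16 of its 21 bases in the coding span. It alone held 26.6% of all piRNA counts, with 232, 190 and 185 counts in plp-1(ok2155), against 284, 218 and 256 in wild-type. Scaled for library size by edgeR, these were 5.16, 3.77 and 4.44 CPM in plp-1(ok2155), against 4.40, 4.61 and 7.68 CPM in wild-type. The groups overlapped, and only plp-1(ok2155) replicate 2 lay below the wild-type range in CPM. Its log2 fold change was -0.32 (SE 0.40, edgeR adjusted p = 0.842). Its FPKM averaged 205 in plp-1(ok2155) and 245 in wild-type, and that of atp-1 averaged 880 in plp-1(ok2155) and 851 in wild-type.

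21ur-12830 (III:6244738-6244758, minus strand) lies in the 3′ UTR of bcas-2, the homolog of a human spliceosome component, 72 bases beyond the coding model. It had 33, 38 and 23 counts in plp-1(ok2155), against 42, 49 and 31 in wild-type, and the groups overlapped. The log2 fold change was -0.35 (SE 0.48, edgeR adjusted p = 0.853), beside -0.18 for bcas-2.

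3 loci lie in the 3′ UTR of lin-66, a heterochronic gene that limits the level of lin-28. 21ur-10153 (IV:13893696-13893716, plus strand), 1338 bases beyond the coding model, had 23, 11 and 8 counts in plp-1(ok2155), against 32, 8 and 8 in wild-type. 21ur-10065 (IV:13892800-13892820) had 10, 6 and 4 counts in plp-1(ok2155), against 16, 5 and 4 in wild-type. 21ur-14580 (IV:13892805-13892825), which shares 16 bases with 21ur-10065, had 9, 5 and 3 counts in plp-1(ok2155), against 14, 4 and 4 in wild-type.

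Replicate 1 was the highest of its group at all 3 of these loci. The host was likewise highest in replicate 1 of each group, with 2049, 1266 and 825 lin-66 counts in plp-1(ok2155), against 2118, 646 and 538 in wild-type. The log2 fold change was 0.01 for 21ur-10153 (SE 0.71, edgeR adjusted p = 0.998), and it took either sign under other settings, from -0.56 without plp-1(ok2155) replicate 1 to 0.58 without wild-type replicate 1, and 0.53 for lin-66 (SE 0.45, adjusted p = 0.762).

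21ur-14724 (III:6173414-6173434, plus strand) lies in the 5′ UTR of abcf-3, an ABC-family protein gene, 192 bases before the coding model, and also opposite an exon of F42A10.5. It had 14, 19 and 12 counts in plp-1(ok2155), against 14, 12 and 6 in wild-type. As CPM scaled by edgeR's trimmed mean of M-values (TMM), these were 0.311, 0.377 and 0.288 in plp-1(ok2155), against 0.217, 0.254 and 0.180 in wild-type, so that every mutant library was higher. The log2 fold change of 0.58 (SE 0.56) did not pass the threshold of 0.05 (edgeR adjusted p = 0.796), and abcf-3 had a log2 fold change of 0.03.

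21ur-13952 (III:4015917-4015937, minus strand) lies in the 3′ UTR of the beta-tubulin gene tbb-2, 129 bases beyond the coding model, and had 20, 10 and 10 counts in plp-1(ok2155), against 16, 8 and 11 in wild-type. The groups overlapped, with a log2 fold change of 0.25 ± 0.63 SE and an adjusted p of 0.933 by edgeR. Without plp-1(ok2155) replicate 1 it was -0.17. 21ur-12205 (II:5912551-5912571, plus strand), in the 5′ UTR of the ceramide glucosyltransferase gene cgt-3, had 11, 14 and 12 counts in plp-1(ok2155), against 12, 13 and 8 in wild-type, with a log2 fold change of 0.21 ± 0.57 SE and an adjusted p of 0.934 by edgeR.

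The remaining 3 of the 12, like 21ur-10065 and 21ur-14580, were too low to be tested and overlapped between groups. All 3 lie in 3′ UTRs on the plus strand of chromosome IV, but 21ur-10296 lies within the coding span of its host and not beyond it. 21ur-10697 (IV:14635966-14635986, ule-2) had 5, 8 and 10 counts in plp-1(ok2155), against 9, 8 and 9 in wild-type. 21ur-7638 (IV:16205353-16205373, H25K10.1) had 3, 2 and 8 counts in plp-1(ok2155), against 1, 4 and 6 in wild-type. 21ur-10296 (IV:14896338-14896358, eps-8, which encodes a regulator of actin in the gut microvilli) had 2, 3 and 2 counts in plp-1(ok2155), against 7, 1 and 5 in wild-type.

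The question of the design, whether the loss of plp-1 changes transcript levels, could be tested at 7 of the 15364 piRNA loci, those that passed the filter on low counts. 21ur-15625, with 1 count in each plp-1(ok2155) library, passed it only through the wild-type libraries. 1 of the 7 fell and 0 rose in plp-1(ok2155), by edgeR's quasi-likelihood test over 15090 genes with Benjamini-Hochberg adjustment. Over all tested genes 0.345% were called, with 0.0795% lower and 0.265% higher. At an unadjusted p under 0.05 there was also 1 of the 7, beside 9.56% of all tested genes. CPM did not overlap between groups at 2 of the 7, beside 14.2% of all tested genes, and 1 of the 2 was lower in plp-1(ok2155), beside 5.49%. The median log2 fold change of the 7 was 0.01, and that of all tested genes was -0.03.

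The locus that fell was 21ur-15625 (gene 13197266, IV:9129902-9129922, plus strand). It lies in the coding part of the last exon of nrfl-1, which encodes a PDZ-domain scaffold of the NHERF family found at the apical membrane of the gut. Its end is 10 bases before the end of the nrfl-1 coding span (IV:9119100-9129932), and it lies about 1.5 Mb from plp-1 on the same chromosome.

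21ur-15625 had 1, 1 and 1 count in plp-1(ok2155), against 29, 45 and 46 counts in wild-type. Before rounding these were 0.129, 0.132 and 0.131 estimated counts in plp-1(ok2155), against 28.3, 44.4 and 45.3 in wild-type. The groups were far apart, and each plp-1(ok2155) value was under 1 estimated count.

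As TMM-scaled CPM the locus averaged 0.0220 ± 0.00209 in plp-1(ok2155) and 0.926 ± 0.466 in wild-type (SD, n = 3 each). Each plp-1(ok2155) count was 1, rounded up, so the plp-1(ok2155) SD reflects library size alone. The fitted log2 fold change was -5.23 (SE 0.77, edgeR adjusted p = 0.0410). Summed over libraries, 3 counts in plp-1(ok2155) against 120 in wild-type gave a CPM ratio of 0.0265 (exact 95% interval 0.00539 to 0.0793). That interval treats estimates that were rounded up as counts of reads, so it does not measure their counting error. It also covers no spread between libraries, and the locus was picked by this same difference. Before rounding the sums were 0.392 in plp-1(ok2155) and 118 in wild-type. The adjusted p was 0.000207 with DESeq2, which called 3.73% of all tested genes, and 0.0266 with the replicate number as a block, which called 1.45%. The call was lost when any 1 of the 6 libraries was left out: the adjusted p was 0.261, 0.259 and 0.0952 without plp-1(ok2155) replicates 1, 2 and 3, and 0.0562, 0.205 and 0.247 without wild-type replicates 1, 2 and 3, with log2 fold changes between -5.56 and -4.86. It was also lost with upper-quartile scaling (log2 fold change -5.23, adjusted p = 0.0562), with no low-count filter (-5.26, 0.0592) and with estimates rounded to the nearest count (-8.41, 0.0834). In the last all plp-1(ok2155) libraries are at 0, so that the fitted fold depends on edgeR's prior count.

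**Figure D5:**
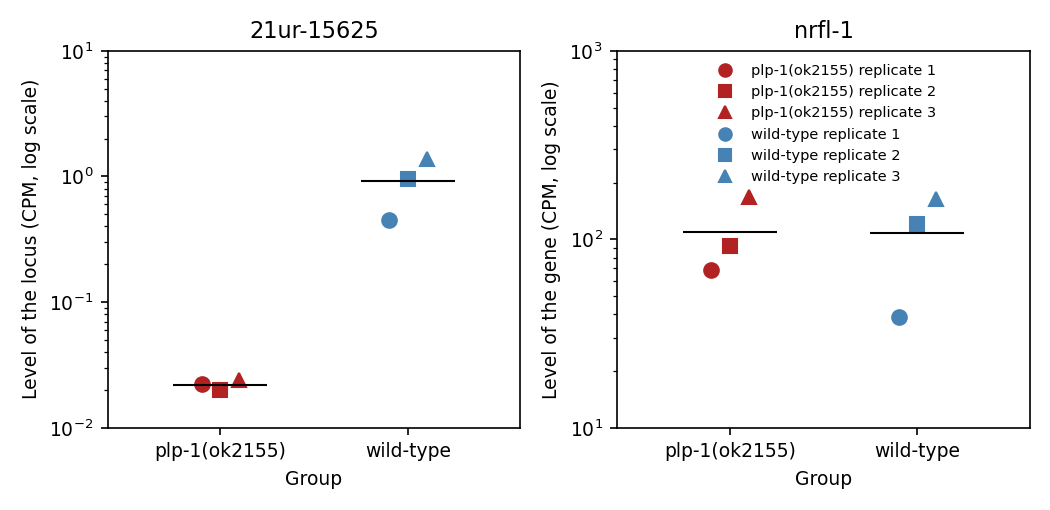
TMM-scaled CPM (log scale) of 21ur-15625, left, and of its host gene nrfl-1, right, in plp-1(ok2155) and wild-type libraries; marker shapes are replicates 1 to 3 and the horizontal line is the group mean. The locus averages 0.0220 CPM in plp-1(ok2155) and 0.926 CPM in wild-type, and nrfl-1 averages 109 CPM in plp-1(ok2155) and 108 CPM in wild-type.

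The plot of the locus beside its host shows that nrfl-1 overlapped between groups. The gene had 3083, 4618 and 6972 counts in plp-1(ok2155), against 2502, 5717 and 5460 in wild-type, with a log2 fold change of 0.02 ± 0.52 SE and an adjusted p of 0.995 by edgeR. For every 1000 nrfl-1 counts, 21ur-15625 had 0.0418, 0.0286 and 0.0188 estimated counts in plp-1(ok2155), against 11.3, 7.77 and 8.29 in wild-type. The means were 0.0297 ± 0.0115 in plp-1(ok2155) and 9.12 ± 1.91 in wild-type (SD, n = 3 each). The two-sided exact permutation p was 0.1, the smallest that 3 against 3 allows. The locus had already been called from the same libraries, so this p adds nothing to that call. Among the 12 largest loci the estimate per 1000 host counts did not overlap between groups at 6, with 4 lower and 2 higher in plp-1(ok2155). It was not computed for all genes, so no share over all genes stands beside this count. The other lower ones were the lin-66 loci 21ur-10153 (9.40 ± 1.49 in plp-1(ok2155) and 13.6 ± 1.33 in wild-type, SD, n = 3 each), 21ur-10065 and 21ur-14580, and the higher ones 21ur-14724 and 21ur-12205. The lin-66 loci share their host counts, and 21ur-10065 and 21ur-14580 also share 16 bases, so they are not separate cases.

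The table holds 10 transcripts of nrfl-1, and how the authors' estimation divided reads between them and the piRNA locus was not tested. 2 other piRNA loci inside nrfl-1, named after their values were seen, had at most 1 count in a library. 21ur-8552, in an intron on the same strand, had 1, 0 and 1 counts in plp-1(ok2155), against 0, 1 and 1 in wild-type. 21ur-10184, on the minus strand within an exon of C01F6.16, had 1, 0 and 1 counts in plp-1(ok2155), against 1, 1 and 1 in wild-type.

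The genes that make and use piRNAs were read from the same fit. Of 29 listed genes, 28 were matched and tested, and 0 were called in either direction by edgeR or DESeq2. At an unadjusted p under 0.05 there was 1 of the 28 with edgeR, which was higher in plp-1(ok2155), beside 9.56% of all tested genes, and there were 2 with DESeq2, beside 11.6%. With the replicate number as a block there were 6, all higher in plp-1(ok2155), beside 15% of all tested genes, and again 0 were called. In all 3 same-numbered pairs of libraries 10 of the 28 were higher in plp-1(ok2155) and 2 were lower, beside 19.8% and 18.4% of all tested genes. The labels state no pairing, so these pairs and the block rest on the replicate number alone, and the pair counts were not tested. The median log2 fold change of the 28 was 0.03, beside -0.03 for all tested genes, and 15 of the 28 were positive, beside 47.5% of all tested genes.

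The gene with that p was prg-1, the Piwi Argonaute that binds piRNAs. It had 331, 230 and 227 CPM in plp-1(ok2155), against 181, 160 and 146 CPM in wild-type. All plp-1(ok2155) libraries were above all wild-type libraries, and prg-1 was the only listed gene whose groups did not overlap, 1 of 28 beside 14.2% of all tested genes. Its means were 263 ± 59.2 CPM in plp-1(ok2155) and 162 ± 17.7 CPM in wild-type (SD, n = 3 each), with a log2 fold change of 0.70 ± 0.25 SE and an adjusted p of 0.406 by edgeR. Its close relative prg-2 had a log2 fold change of -0.14 (adjusted p = 0.908).

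Factors that act at the piRNA locus did not pass the test. Of the promoter-bound factors, snpc-4 was at 0.40 on the log2 fold-change scale (edgeR adjusted p = 0.674) and prde-1 at 0.03 (0.983). Among the others with that role, fkh-5 was at 1.00 (0.670), unc-130 at -0.68 (0.717), tofu-4 at -0.19 (0.893) and tofu-5 at -0.07 (0.963). The forkhead genes fkh-4 and fkh-3 were at 1.33 (0.571) and 0.95 (0.624), with wide spread: fkh-4 had 20.2, 12.1 and 3.87 CPM in plp-1(ok2155), against 5.26, 6.70 and 2.43 CPM in wild-type.

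Processing factors lay close to 0. The precursor-trimming gene parn-1 was at -0.08 on the same scale (edgeR adjusted p = 0.953), the methyltransferase gene henn-1 -0.13 (0.898), and the nuclease subunit gene tofu-1 -0.22 (0.819). Downstream of the piRNA, the nuclear Argonaute gene hrde-1 had 0.68 (0.571), pid-5 0.67 (0.564), pid-2 0.61 (0.613) and simr-1, a factor of the germ granules where silencing is amplified, 0.61 (0.575). The other 2 with that role were lower on the scale, deps-1 at 0.28 (0.776) and pid-4 at 0.04 (0.971). In hrde-1, for example, the groups overlapped, with 630, 425 and 341 CPM in plp-1(ok2155), against 371, 280 and 223 CPM in wild-type. There plp-1(ok2155) was the higher library of each same-numbered pair, a pairing that the labels do not state.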

How the data were processed

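The authors deposited 1 table of 46769 genes and 1 of 56158 transcripts, each with estimated counts and FPKM per library. Per the submitters' processing notes, the tools included StringTie 1.3.4d, HISAT2 2.1.0, Trimmomatic 0.38 and DESeq2, with no role or order. Use of strand in counting is not stated. FPKM times length times 1 constant per library gave back these estimates: 100% of the transcript counts from 1 to 50 exceeded it by 0 to 1 within a tolerance of 0.01 counts, so the deposited counts had been rounded up. Transcript counts added up to the gene count in all 46769 genes. 24 rows that name no gene, 0.00236% to 0.0246% of a library's counts, were left out.

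Strand, exons and introns came from the Ensembl annotation of WBcel235, the build in the file labels, with 1-based coordinates. The strand was resolved for 15351 of the 15364 piRNA loci. Of the 29 pathway genes 9 were matched by gene ID, and tofu-3 was not matched.

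Counts were tested with edgeR 4.0.16 (R 4.3.3), glmQLFit and glmQLFTest, on all genes kept by filterByExpr with TMM scaling and Benjamini-Hochberg adjustment at 0.05; DESeq2 1.42.0 was an alternative. In simulated counts 72.5% of 200 genes changed by 3 on the log2 scale were recovered, with 5.2% false among those called. The SE is the log2 fold change divided by the square root of the F statistic. The 12 loci with the largest summed counts, those called and those tested were named, and of the pathway prg-1 and the 6 genes of smallest p, with others given for their role. The members and lists were chosen with earlier results of these data known. Deviations from the group mean had correlations of 0.28, 0.21 and 0.36 between same-numbered plp-1(ok2155) and wild-type libraries, against -0.34 to -0.04 for other pairs. Because they were taken from group means, positive values for some pairs force negative ones for others. The labels state no pairing, so a pairing by replicate number was not established, and the block is an alternative setting only. The exact interval treats rounded-up estimates as counts of reads and covers no spread between libraries.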

Additional observations from a re-analysis of the deposited data

How the results depend on the processing

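The number of piRNA loci called was 1 as reported, 1 with DESeq2 size factors, with the DESeq2 test and with the replicate block, and 0 with upper-quartile scaling, with no low-count filter, with estimates rounded to the nearest count (chosen after seeing the data) and when any 1 of the 6 libraries was left out (0 to 0). With the replicate block 21ur-15625 had a log2 fold change of -5.15 (edgeR adjusted p = 0.0266), and the block changed no call of a piRNA locus or pathway gene. No pathway gene was called by edgeR or DESeq2 under any of these settings, with 0 to 6 at an unadjusted p under 0.05, the 6 with the replicate block.

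Loci with any count numbered 1124, 554 with at least 2 counts over the libraries, 19 with at least 10, and 898 to 1080 without 1 library, the lowest without wild-type replicate 1. The share on chromosome IV was 86.3%, 63.2% of loci with at least 10 counts, and 84.9% to 86.4% without 1 library. Exons of either strand held 78.2% of counts, 66.4% counting only loci wholly inside, 65.6% without the 5 largest loci, 89.8% of unrounded estimates, and 77.0% to 80.8% without 1 library. The median log2 fold change of the tested loci was 0.01, and -0.29 to 0.037 without 1 library, among 8 or 9 tested. The log2 ratio of summed CPM was -0.18, -0.33 with estimates before rounding up, -0.32 with FPKM, -0.064 without the 5 largest loci, and -0.30 to -0.08 without 1 library.

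Direction turned for 21ur-13952, to -0.17 without plp-1(ok2155) replicate 1 and -0.021 without wild-type replicate 2, in a range of -0.17 to 0.47 without 1 library. For 21ur-10153 it turned to -0.075 with upper-quartile scaling, -0.047 with no low-count filter, -0.56 without plp-1(ok2155) replicate 1, -0.37 without wild-type replicate 2 and -0.22 without wild-type replicate 3, in a range of -0.56 to 0.58 without 1 library. The cause was not tested. Low counts limit all of this: 1090 of the 1124 counted loci had 6 counts or fewer over 6 libraries, so most loci could not be tested.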

Other observations

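At 21ur-11311 (IV:5824750-5824770, plus strand), which overlapped no other gene and was chosen after its values were seen, the plp-1(ok2155) libraries had 0, 0 and 0 counts, against 16, 0 and 1 in wild-type. The counts came almost wholly from wild-type replicate 1, the library with the most counted piRNA loci. At 21ur-11100 (I:7235352-7235372, plus strand), also outside other genes and chosen in the same way, they were 5, 1 and 3 in plp-1(ok2155), against 5, 3 and 2 in wild-type.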
